A study of Mus musculus with 4 samples.

Results

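DNA segments named after the genes Alas2, Hebp1, Btg2, Hipk2 and Vav2 were examined for histone H3 lysine 27 acetylation (H3K27ac) before and after restoration of GATA1. They were chosen from the list of DNA segments tested for enhancer activity in reporter assays, as those whose name is a gene symbol followed by R and a number, leaving out the Gata2R and Zfpm1R segments. This gave 24 segments and left 249 others on the list. Of the 24, 11 were named after Hipk2, 6 after Vav2, 3 after Btg2, 2 after Alas2 and 2 after Hebp1. Their median length was 226.5 bp (145 to 590 bp), against 599 bp for the other tested segments. The measurement was ChIP-seq, which sequences the chromatin that an antibody against H3K27ac pulls down. Untreated G1E cells (2 replicates) are an immortalized line made from mouse ES cells of strain 129 that lack Gata1, and serve as a model of erythroid progenitors. G1E-ER4 cells are the same line after transduction with a virus that expresses GATA1-ER, a GATA1 hybrid that works only in the presence of hormone. Here they had received estradiol at 10 nM over 24 h (named G1E-ER4+E2, 2 replicates), so both groups lack the cells' own GATA1. Untreated G1E-ER4 cells and G1E cells given estradiol were not analysed here, so the transduced line, the hormone and GATA1 cannot be told apart as sources of a difference.

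H3K27ac is laid down by acetyltransferases such as EP300 and is found at active enhancers and promoters, where it can cover a narrow site or spread over a broad domain. GATA1 and its partner TAL1 activate many genes of the maturing red cell. Alas2 encodes the erythroid form of 5-aminolevulinate synthase, which catalyses the first and rate-limiting step of heme synthesis, and Hebp1 encodes a heme-binding protein. Btg2 encodes an antiproliferative protein that is induced by p53. Hipk2 encodes a nuclear serine/threonine kinase that acts on transcription factors. Vav2 encodes a guanine nucleotide exchange factor that acts in receptor signalling.

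The segments are given by their positions on mm9, the genome build of the peak lists, and their sequences are not shown. For orientation, promoters from RefSeq (build GRCm38.p6) are shown for the 2 genes whose peaks stood out most in G1E-ER4+E2 cells, Alas2 for enrichment and Btg2 for width. Each is the 250 bases before the annotated start of the gene, 5′ to 3′ on the strand of the gene. The motifs searched were AGATAA and TGATAA, which are forms of the GATA1 binding site and share the letters GATAA, and CANNTG, the E-box, all on both strands. Capitals mark AGATAA or TGATAA read on either strand. The first sequence lies at chrX:150547167-150547416 on the plus strand and the second at chr1:134079156-134079405 on the minus strand.
Alas2: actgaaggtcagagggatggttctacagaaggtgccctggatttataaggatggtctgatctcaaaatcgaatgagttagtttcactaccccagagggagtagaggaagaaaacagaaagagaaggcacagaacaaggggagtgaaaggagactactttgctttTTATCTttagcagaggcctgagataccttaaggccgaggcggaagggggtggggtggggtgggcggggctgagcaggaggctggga
Btg2: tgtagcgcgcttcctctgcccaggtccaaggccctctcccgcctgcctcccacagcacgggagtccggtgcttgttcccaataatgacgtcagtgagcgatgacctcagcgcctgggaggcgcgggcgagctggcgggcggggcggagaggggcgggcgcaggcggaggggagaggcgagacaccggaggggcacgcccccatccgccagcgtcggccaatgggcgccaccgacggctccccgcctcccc

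The Alas2 promoter holds 1 such motif, which begins 86 bases before the start of the gene and is AGATAA on the other strand. The promoters of Btg2, Hebp1 and Vav2 and both listed promoters of Hipk2 hold none, and 16.6% of the 32851 promoters in the table hold at least 1. CANNTG is present in 66.2% of all promoters, with 2 in that of Hebp1, 1 in the second promoter of Hipk2 and 0 in those of Alas2, Btg2 and Vav2. These letters are a description and not evidence of binding. The promoter positions are on another build than the peaks, and which peaks lie over them was not determined.

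Broad peaks were available for each replicate and, pooled by the authors, for each cell line. Each peak carries a fold enrichment, a ratio that is used below only to rank peaks within one list. Its median was 6.69 and 7.76 in the G1E replicate lists and 2.98 and 3.59 in those of G1E-ER4+E2. Ranks from different lists therefore do not compare the cell lines. The 4 replicate lists held 21557 to 29087 peaks, and they covered on average 120 Mb in G1E cells and 162 Mb in G1E-ER4+E2 cells, a ratio of 1.35. Sequencing depth cannot be read from peak lists and is unknown, and its part in this difference was not tested. Peak borders fell on multiples of 200 bp, and no peaks of a list were closer than 800 bp.

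With at least 1 bp in a peak of the pooled list, 18 of the 24 segments had H3K27ac in G1E-ER4+E2 cells, where 66.7% of all tested segments did. In G1E cells only 8 of the 24 had it, where 55.3% of all tested segments did. H3K27ac was found in G1E-ER4+E2 cells only at 10 segments, or 41.7%, against 12.8% of all tested segments and 10.0% of the 249 tested segments outside this group. It was found in G1E cells only at 0 segments (1.47% of all tested), in both cell lines at 8 (53.8%) and in neither at 6 (31.9%). The 10 segments lie at 4 genes, 7 of them at Hipk2, and 6 of these 7 share their peak with another, so they are not independent of each other. Without the Hipk2 segments the share was 3 of 13, or 23.1%. The other tested segments are not independent either, since 22 Zfpm1R segments lay in 1 pooled G1E-ER4+E2 peak. They are also longer, with a median of 599 bp, and 70 of them were chosen for TAL1 binding in G1E-ER4+E2 cells. Their share is thus not a neutral expectation.

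In the single replicates, 16 and 18 of the 24 had H3K27ac in G1E-ER4+E2 cells, where 64.1% and 65.2% of all tested segments did, and 7 and 7 in G1E cells, where 55.3% and 54.6% did. A peak in both G1E-ER4+E2 replicates and in no G1E replicate was found at 9 of the 24 segments (11% of all tested segments), a peak in all 4 replicates at 6 (51.3%) and a peak in none at 6 (32.6%). Replicates of one cell line differed at 3 segments, namely Hebp1R2, Hipk2R4 and Hipk2R23 (3.66% of all tested). The result depends on weakly enriched peaks. When the G1E-ER4+E2 pooled peaks were kept from the highest enrichment downward until they covered as much as the G1E pooled list, 9 of the 24 segments had H3K27ac in G1E-ER4+E2 cells (54.6% of all tested) and 8 in G1E cells (55.3%). Of the 10 segments, 2 still had it in G1E-ER4+E2 cells only, Btg2R8 and Vav2R7, and 17 of 35 did among all tested segments. These 2 are 8.33% of the 24, near the 6.23% of all tested segments, and 1 of the 24 then had H3K27ac in G1E cells only (6.96%). That 1 was Vav2R5, whose G1E-ER4+E2 peak lay right at the limit of enrichment. With peaks at or above the median enrichment of their list, 8 of the 24 had H3K27ac in G1E-ER4+E2 cells (53.5% of all tested) and 5 in G1E cells (46.5%). It was then found in G1E-ER4+E2 cells only at 3, or 12.5%, beside 12.1% of all tested segments, and in G1E cells only at 0 (5.13%). Of these 3 only Btg2R8 was among the 10, where 16 of 35 remained among all tested segments, and Btg2R3 and Btg2R9 lie in G1E peaks of lower enrichment. Under both settings the share found in G1E-ER4+E2 cells only was thus close to that of all tested segments.

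At Alas2, H3K27ac covered far more of the region in G1E-ER4+E2 cells than in G1E cells. Alas2R1 (chromosome X, 146984295 to 146984495) lay in a peak in all 6 lists. Its width was 2.4 and 5.2 kb in the G1E replicates. In the G1E-ER4+E2 replicates it was 24.0 and 23.8 kb, and the left border lay at 146980801 in both. The widths of the 2 cell lines did not overlap, and the replicates of G1E-ER4+E2 differed by a single 200 bp step. The enrichment of the peak ranked above 65.3% and 54.5% of the peaks of its list in the G1E replicates. In the G1E-ER4+E2 replicates it ranked above 99.3% and 99.8%. Each rank holds within its own list, so the ranks do not compare the cell lines. Only 0.243% of the pooled G1E-ER4+E2 peaks were at least as enriched, and 5.08% were at least as wide.

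Alas2R3 (chromosome X, 146999209 to 146999549) lay inside the same 24.0 kb peak in both G1E-ER4+E2 replicates. In G1E cells the nearest peak was 13008 bp away in replicate 1 and 12608 bp in replicate 2. The pooled G1E list had a peak of 1.4 kb over it, from 146998401 to 146999800, which neither replicate list contained. By the pooled lists Alas2R3 is therefore a segment with H3K27ac in both cell lines, and by the replicate lists one with H3K27ac in G1E-ER4+E2 cells only. The segments are 15.3 kb apart from the start of the first to the end of the last, and together they make up 2.26% of the peak that holds both. On its left and right stood pooled peaks of 8.4 kb (146971001 to 146979400) and 9.6 kb (147005601 to 147015200), which had no G1E peak over them. They hold no tested segment.

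Hebp1R2 (chromosome 6, 135115674 to 135115946) lay at the edge of the only G1E peak of its region. In G1E replicate 2 that peak had a width of 3.4 kb and began 73 bp before the segment. In G1E replicate 1 it had a width of 3.2 kb and began 254 bp after the segment. In the G1E-ER4+E2 replicates the peak over Hebp1R2 was 14.2 and 12.4 kb wide, and ranked above 94.4% and 96.8% of its list by enrichment. The difference from G1E lay mostly to the left, where the peak reached 9673 and 7673 bp beyond the segment. Hebp1R3 (chromosome 6, 135091566 to 135092125) was more than 23 kb from any G1E peak, with nearest distances of 24075 and 23475 bp. In G1E-ER4+E2 cells its peak was 5.2 kb in the first replicate and 6.0 kb in the second. These were among the least enriched peaks of their lists, above only 9.48% and 3.46% of them. Hebp1R2 and Hebp1R3 were thus in peaks of opposite rank in the same cells.

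At Btg2, separate G1E peaks stood where G1E-ER4+E2 cells had one broad domain. Btg2R3 (chromosome 1, 135969754 to 135969902) lay in a peak of 2.2 and 1.6 kb in the G1E replicates. Btg2R9 (chromosome 1, 135989523 to 135989792) lay in one of 13.4 and 3.4 kb. Btg2R8 (chromosome 1, 136002654 to 136002802) was 1253 and 4253 bp from the nearest G1E peak in the replicates. In G1E-ER4+E2 cells all 3 segments lay in 1 peak in each replicate, with widths of 54.6 and 44.2 kb. The pooled peak ran from 135949201 to 136007800, or 58.6 kb, and 0.519% of the pooled G1E-ER4+E2 peaks were at least as wide. It lay over 3 pooled G1E peaks with a summed width of 21.2 kb, and 2.29% of the pooled G1E-ER4+E2 peaks lay over 3 or more. The middle one of those G1E peaks, 7.6 kb from 135974001 to 135981600, holds no tested segment.

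The replicates differed in how they divided the Btg2 domain. G1E-ER4+E2 replicate 2 had a second peak of 11 kb to the left of the 44.2 kb peak, and replicate 1 had a small one of 1.6 kb to the right. Both replicates covered nearly the whole pooled peak, 95.9% in replicate 1 and 92.5% in replicate 2. The G1E replicates covered 36.5% and 21.5% of the same stretch. By enrichment the domain ranked above 84.2% and 85.5% of the peaks in the G1E-ER4+E2 replicates.

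Hipk2 had the most segments and the most peaks. The 2 segments nearest one end of the region, Hipk2R33 (chromosome 6, 38592266 to 38592444) and Hipk2R19 (chromosome 6, 38649011 to 38649300), were in no peak of any list. The nearest pooled G1E-ER4+E2 peaks were 10265 bp from Hipk2R33 and 36300 bp from Hipk2R19. At the other end, Hipk2R40 (chromosome 6, 38824491 to 38824648) and Hipk2R39 (chromosome 6, 38824640 to 38824903) overlap each other by 9 bp and lay together in a peak in all 6 lists. This peak was 3.8 and 3.6 kb wide in the G1E replicates and 5.4 and 5.8 kb in the G1E-ER4+E2 replicates. It was the most enriched of the region in every list, above 68.3% and 72.0% of the peaks in the G1E replicates and 91.7% and 93.4% in the G1E-ER4+E2 replicates. The lists differ in length and median enrichment, so the higher ranks do not show a higher enrichment in G1E-ER4+E2 cells. The widths of the cell lines did not overlap, and the pooled peak was 3.8 kb in G1E and 7.6 kb in G1E-ER4+E2.

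The other 7 Hipk2 segments had H3K27ac in G1E-ER4+E2 cells only, by the pooled lists. Hipk2R4 (chromosome 6, 38704032 to 38704437), Hipk2R23 (38711398 to 38711542) and Hipk2R25 (38715236 to 38715384) lay in 1 pooled peak of 19.8 kb, from 38699001 to 38718800. In replicate 2 they shared a peak of 14.8 kb. In replicate 1 the same stretch was split into 3 peaks of 3.2, 5.8 and 5.8 kb, of which the last held Hipk2R25. Hipk2R4 missed the middle peak by 163 bp and Hipk2R23 missed the last by 258 bp. Hipk2R23 also lay in a peak of 4.2 kb in G1E replicate 1, and it was 16058 bp from any peak in G1E replicate 2 and 658 bp from one in the pooled G1E list. Only Hipk2R25 of these was thus in a peak in both G1E-ER4+E2 replicates and in no G1E list.

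Hipk2R27 (chromosome 6, 38796864 to 38797087), Hipk2R28 (38800036 to 38800364) and Hipk2R30 (38806153 to 38806301) shared a pooled peak of 27.4 kb, from 38791001 to 38818400. In replicate 2 they shared a peak of 27.8 kb. In replicate 1 Hipk2R27 and Hipk2R28 lay in a peak of 9.4 kb and Hipk2R30 in the next one, of 3.4 kb, 1400 bp further on. The G1E replicates covered 0.0 and 2.0 kb of the stretch, with a G1E replicate 2 peak that came no closer than 1899 bp to a segment. Hipk2R16 (chromosome 6, 38721282 to 38721450) lay alone in a peak of 3.4 and 2.6 kb in the G1E-ER4+E2 replicates, and the nearest G1E peaks were 5150 and 6150 bp away.

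The 3 pooled peaks over these 7 segments ranked low by enrichment, above 39.9% of the list for the 19.8 kb peak, 31.8% for the 27.4 kb peak and 27% for that of Hipk2R16. By width the first 2 ranked high, above 92.8% and 96.1% of the list. In the pooled G1E list the peaks under them were 1.2 and 2.0 kb wide, which makes the G1E-ER4+E2 peaks 16.5 and 13.7 times as wide. These ratios rest on the choice of list. Under the 19.8 kb peak G1E replicate 1 had 4.2 kb, a ratio of 4.71, and replicate 2 had 0 kb, and under the 27.4 kb peak they had 0 and 2.0 kb. For the other peaks with segments that lay over a pooled G1E peak the ratio was 3.9 at Hebp1R2, 3.64 at Alas2, 2.76 at Btg2, 2.0 at Hipk2R40 and Hipk2R39 and 1.25 at Vav2R5. For the pooled G1E-ER4+E2 peak at Alas2 it was 10.0 to G1E replicate 1 and 4.62 to replicate 2, and at Btg2 it was 2.74 and 4.65. These ratios, like the 4.71 above, set the pooled G1E-ER4+E2 list, which covers 201 Mb, against a G1E replicate list of 126 or 113 Mb. The median for all 15748 pooled G1E-ER4+E2 peaks over a pooled G1E peak was 1.06, which compares only with the ratios between the pooled lists. Of the 9 Hipk2 segments in pooled G1E-ER4+E2 peaks, 6 were thus in broad peaks of below-median enrichment and Hipk2R16 in a narrow one.

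Vav2 had the least H3K27ac of the 5 genes in G1E-ER4+E2 cells. Vav2R10 (chromosome 2, 27184264 to 27184417), Vav2R3 (27199489 to 27199723), Vav2R4 (27249344 to 27249572) and Vav2R6 (27293122 to 27293330) were in no peak of any list. The nearest pooled G1E-ER4+E2 peaks were 60583, 45277, 1943 and 3070 bp away, in this order. Vav2R5 (chromosome 2, 27267362 to 27267660) lay near the middle of a peak in all 6 lists. This peak was 2.2 kb wide in both G1E replicates, and 3.0 and 1.6 kb wide in the G1E-ER4+E2 replicates, which lie on both sides of the G1E widths. Within its own list its enrichment ranked above 48.8% and 35.4% of the peaks in the G1E replicates and above 45.9% and 47.9% in the G1E-ER4+E2 replicates. The lists differ in length, so these ranks do not compare the cell lines. At equal covered length the pooled G1E-ER4+E2 peak over Vav2R5 was not kept, but its enrichment lay right at the limit.

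Vav2R7 (chromosome 2, 27244975 to 27245564) had H3K27ac in G1E-ER4+E2 cells only. A narrow peak of 2.2 and 2.4 kb in the replicates covered 61.7% and 95.6% of the segment. The nearest G1E peaks were more than 20 kb away, at 20836 and 20636 bp. The Vav2 region was also the only one of the 5 with pooled G1E peaks over which no G1E-ER4+E2 peak lay, as was the case for 29.7% of all pooled G1E peaks. They ran from 27272601 to 27274600 and from 27281401 to 27284000. The second was present in both G1E replicates, at 2.6 and 2.2 kb, and the first in neither. Neither holds a tested segment.

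Some segments of one gene shared a peak in G1E-ER4+E2 cells. In the pooled list the 18 segments lay in 10 peaks, of which 5 held 2 or 3 segments and 13 segments in all. The same count was not made for all tested segments. Sharing was not particular to this group, since 22 Zfpm1R segments lay in 1 pooled G1E-ER4+E2 peak and 5 Gata2R segments in 2. In G1E cells the 8 segments lay in 7 peaks, and the only shared one was that of Hipk2R40 and Hipk2R39. Peaks with 2 or more segments numbered 4 in G1E-ER4+E2 replicate 1 and 5 in replicate 2. The tested DNA made up between 0.969% of the shared pooled peak at Btg2 and 5.55% of that at Hipk2R40 and Hipk2R39. Whether segments share a peak depends on the gaps between peaks. Joining peaks up to 2 kb apart, an alternative chosen after the data were seen, gave 4 shared peaks in the pooled list, since the 27.4 kb peak at Hipk2 joined that of Hipk2R40 and Hipk2R39, and 5 and 4 in the replicates.

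The length covered by peaks was then compared between the cell lines in a window for each gene, from the first to the last segment plus 20 kb on each side. In the 55.3 kb window of Alas2, peaks covered 2.4 and 5.2 kb in the G1E replicates and 41.7 and 37.6 kb in the G1E-ER4+E2 replicates. The means were 3.8 ± 1.98 kb and 39.7 ± 2.93 kb (SD, n = 2 each), a ratio of 10.4. The ratio was 16.5 without G1E replicate 2, 7.63 without G1E replicate 1 and 6.36 between the pooled lists. It was 7.24 with no flank and 7.71 with 50 kb on each side. In the 64.4 kb window of Hebp1 the values were 3.2 and 3.4 kb in G1E against 22.2 and 18.4 kb, with means of 3.3 ± 0.141 kb and 20.3 ± 2.69 kb (SD, n = 2 each) and a ratio of 6.15, against 6.3 between the pooled lists. It depended on the flank, since with 50 kb on each side the G1E replicates had 18.6 and 17.4 kb and the G1E-ER4+E2 replicates 45.4 and 39.0 kb, a ratio of 2.34. With no flank the G1E replicates had 0 and 0.346 kb against 16.0 and 13.9 kb. The replicates of a cell line were far closer to each other than to the other cell line at both heme-related genes.

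In the 73.0 kb window of Btg2, peaks covered 21.4 and 12.6 kb in the G1E replicates and 55.6 and 53.6 kb in the G1E-ER4+E2 replicates. The means were 17.0 ± 6.22 kb and 54.6 ± 1.41 kb (SD, n = 2 each), a ratio of 3.21, which was 2.01 with no flank. In the 272.6 kb window of Hipk2 the values were 30.1 and 28.3 kb in G1E against 113.7 and 115.7 kb, with means of 29.2 ± 1.27 kb and 114.7 ± 1.41 kb (SD, n = 2 each) and a ratio of 3.92. These stretches were divided into 9 and 10 peaks in the G1E replicates and into 22 and 12 in the G1E-ER4+E2 replicates, so the replicates of G1E-ER4+E2 had almost the same covered length in very different numbers of peaks. In the 149.1 kb window of Vav2 the values were 4.8 and 4.4 kb in G1E against 8.33 and 7.93 kb, with means of 4.6 ± 0.283 kb and 8.13 ± 0.283 kb (SD, n = 2 each) and a ratio of 1.77.

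Of the 24 pooled G1E-ER4+E2 peaks in the 5 windows, 9 had no pooled G1E peak over them, a share close to the 40.3% of all pooled G1E-ER4+E2 peaks. In all 5 windows, at 20 kb on each side, both G1E-ER4+E2 replicates covered more than both G1E replicates. At Vav2 this depended on the flank. With no flank the G1E replicates had 4.8 and 4.4 kb and the G1E-ER4+E2 replicates 5.2 and 4.0 kb (exact permutation p = 1.0). With 50 kb on each side they had 23.0 and 13.4 kb against 24.4 and 20.6 kb, which also overlap (exact permutation p = 0.667). At 20 kb a two-sided exact permutation test gave p = 0.333 for each window, also after Benjamini-Hochberg adjustment over the 5 windows, which is the smallest p that 2 against 2 samples allow. Nothing in the labels says that the replicates were separate cultures, so the spread between them may be technical. The ratio of the whole lists was 1.35, and with 20 kb flanks the 5 windows ranged from 1.77 to 10.4. When each replicate list was kept from the highest enrichment downward to the covered length of the shortest list, Alas2 still had 41.7 and 37.6 kb in G1E-ER4+E2 against 2.4 and 5.2 kb. Btg2 had 54.0 and 53.6 kb against 19.2 and 12.6 kb, and Hebp1 had 14.2 and 12.4 kb against 3.2 and 3.4 kb. Hipk2 had 15.4 and 32.3 kb against 19.0 and 28.3 kb, so that the cell lines overlapped. Vav2 had 1.8 and 3.0 kb against 4.8 and 4.4 kb, the opposite direction (exact permutation p = 0.333).

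The windows of the Gata2R and Zfpm1R segments, treated the same way, had ratios of 0.899 and 0.945 between G1E-ER4+E2 and G1E. In the Gata2 window, with 7 segments, peaks covered 33.8 and 29.4 kb in G1E and 31.6 and 25.2 kb in G1E-ER4+E2 (two-sided exact permutation p = 0.667). In the Zfpm1 window, with 23 segments, they covered 80.4 and 75.6 kb in G1E and 74.6 and 72.8 kb in G1E-ER4+E2 (exact permutation p = 0.333). Gata2 encodes the GATA factor of earlier progenitors and Zfpm1 the GATA1 cofactor FOG1. Of their segments 5 of 7 and 22 of 23 had H3K27ac in both cell lines, and 0 had it in one cell line only. The 22 Zfpm1R segments lay in 1 pooled G1E-ER4+E2 peak and the 5 Gata2R segments in 2. Differences between the windows themselves were not tested.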

How the data were processed

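H3K27ac ChIP-seq peak lists of G1E and G1E-ER4+E2 cells were used, 2 replicates each. Broad peaks called by the authors, per replicate and pooled per cell line, carry a deposited fold enrichment (a linear ratio), used only to rank peaks within a list. The deposited q-values (p-values after correction) were used only as a threshold. The submitters' processing notes name bcl2fastq 1.8.4, Bowtie 1.0.0, SICER 1.1 and mm9. The control, the settings and the way replicates were pooled are not given in the sources used here. A segment had H3K27ac when at least 1 bp lay in a pooled peak. Names and positions of the tested segments came from the study's list. Their enhancer activities and other features are not reported here. Covered lengths were compared by exact permutation over the replicates. All 24 segments are named one by one, and other tested segments only inside the 5 windows or as groups. The segments, lists and tests were chosen with earlier results of these data known. Overlap calls were right for all 300 simulated segments. Alternatives were other peak lists, overlaps, thresholds, flanks, scalings and left-out replicates or genes. Python 3.11.15, NumPy 2.4.6, pandas 2.3.3 and SciPy 1.17.1 were used.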

Additional observations from a re-analysis of the deposited data

How the results depend on the processing

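The counts of segments with H3K27ac (18 in G1E-ER4+E2, 8 in G1E and 10 restricted to G1E-ER4+E2) stayed within 1.5 times under each choice of replicates, overlap and a q-value of at most 1e-10. They moved with enrichment. With peaks at or above the median enrichment of their list they were 8, 5 and 3 (53.5%, 46.5% and 12.1% of all tested segments), with 3 shared peaks in G1E-ER4+E2. With the G1E-ER4+E2 list kept to the covered length of G1E they were 9 in G1E-ER4+E2 (54.6% of all tested), of which 2 were absent from G1E (6.23%). There were 3 shared peaks, and 1 segment was found in G1E alone (6.96% of all tested, here Vav2R5, whose peak lay at the limit). Without the Hipk2 segments they were 9 of 13 in G1E-ER4+E2 (66.7% of all tested) and 3 of 13, or 23.1%, in G1E-ER4+E2 only (12.8%), and the shared peaks were 2 in G1E-ER4+E2 and 0 in G1E. The latter was also 0 when Hipk2R39 and Hipk2R40 counted as 1. Without 1 replicate of each cell line, 0 to 1 segment was found in G1E alone, the 1 being Hipk2R23 without replicate 2. The covered length differed between G1E-ER4+E2 and G1E by 35.9 kb at Alas2, 37.6 kb at Btg2, 17.0 kb at Hebp1, 85.5 kb at Hipk2 and 3.53 kb at Vav2. Without any 1 replicate it was 33.8 to 37.9, 33.2 to 42.0, 15.1 to 18.9, 84.5 to 86.5 and 3.33 to 3.73 kb. Peaks kept to the shortest list gave 0.2 kb at Hipk2 and -2.2 kb at Vav2, and no flank gave 0 kb at Vav2, 13.1 kb at Alas2 and 16.6 kb at Btg2. Enrichment from the median upward gave 7.5 kb at Hipk2, 10.0 kb at Hebp1 and 1.6 kb at Vav2. Scaling to the whole list gave 1.66 kb at Vav2, and 50 kb flanks gave 4.3 kb there with overlapping replicates. The cause was not tested. Replicate numbers are shared between the cell lines, but nothing says that they pair samples, and the correlation of their deviations over 44070 bins of 10 kb was 0.107. With the replicate block the differences were the same by construction (35.9, 37.6, 17.0, 85.5 and 3.53 kb), so this is no check of them. The exact sign-flip p was 0.5, the smallest that 2 pairs allow.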

Other observations

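Tested segments whose names carry NC in place of R also lie in these windows. Alas2NC1 (chromosome X, 147000392 to 147000733) lay inside the 24.0 kb Alas2 peak in both G1E-ER4+E2 replicates and was 14191 and 13791 bp from the nearest peak in the G1E replicates. Hipk2NC4 (chromosome 6, 38707479 to 38707762) lay between Hipk2R4 and Hipk2R23, in a peak in both G1E-ER4+E2 replicates and in no G1E list. Hipk2NC1 (chromosome 6, 38782190 to 38782723) was in a peak in all 6 lists, 4.6 and 6.6 kb wide in the G1E replicates and 15.4 and 16.8 kb in the G1E-ER4+E2 replicates. Hipk2NC3 (chromosome 6, 38616599 to 38616976) and Vav2NC1 (chromosome 2, 27220046 to 27220284) were in no peak of any list. H3K27ac in G1E-ER4+E2 cells only was thus found at 2 of these 5 segments, beside 3 of all 13 NC segments, 10 of the 24 segments with R names and 12.8% of all tested segments.

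Of the pooled peaks in the 5 windows, 14 of 24 in G1E-ER4+E2 and 14 of 21 in G1E hold no tested segment with an R name. The widest of these in G1E-ER4+E2 was 19.2 kb at Hipk2, from 38771001 to 38790200, which lay over 3 pooled G1E peaks and holds Hipk2NC1.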
